A study of Mus musculus with 12 samples.

Results

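Zfp genes are mouse genes named for a zinc finger protein, and here they are the genes whose symbol begins with Zfp and a number, with every symbol that begins with Zfp36 left out. Of 382 such genes in a table of 24589, the 282 that reached 1 TPM in at least 2 of 12 libraries were taken as members. TPM gives the share of a library that a gene holds once its length is allowed for. Of the other 100, 28 were listed at 0 in every library and 72 were above 0 but below that level. The rule also leaves out 5 genes whose symbols share the Zfp36 prefix only by their number, 3 of which reached that level. Just outside it, the second highest library was at 0.98 TPM for Zfp239 and 0.94 TPM for Zfp995. Just inside it, this was 1.00 TPM for Zfp11 and 1.02 TPM for Zfp760.

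Most of these proteins carry C2H2 fingers, short loops in which a pair of cysteines and a pair of histidines hold a zinc ion. Fingers in a row can read successive short runs of DNA bases. Many also have a KRAB domain, which recruits the corepressor Trim28 and, through it, enzymes that lay down silent chromatin, above all on transposable elements. Some members instead bind RNA, ribosomes or the mitotic spindle.

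RNA was measured in NRAS/AE9a cells, a mouse acute myeloid leukemia line, either Tet2-null (KO) or with intact Tet2 (WT), by mRNA sequencing. Tet2 encodes an enzyme that oxidises 5-methylcytosine. KO cells were exposed to actinomycin D, which blocks transcription, at 5 µg/ml for 0, 4 or 8 h, and WT cells were exposed in the same way, with 2 libraries in each of the 6 groups. All cells grew in RPMI medium with SCF, IL-3, IL-6, G418 and puromycin. Each genotype appears as 1 line, so Tet2 status cannot be told apart from any other difference between the lines. The labels do not call the libraries of a group separate cultures, and p-values here measure the spread between libraries, which may be technical.

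Tet2 itself was at 10.2 and 10.2 TPM in KO cells and 13.1 and 16.03 TPM in WT cells at 0 h, and a level for the whole gene does not separate deleted exons from kept ones. All 9 myeloid markers reached 1 TPM in 2 libraries or more, and they summed to 1163 to 2416 TPM in KO libraries and 990 to 2986 TPM in WT libraries. These ranges span all times, and single markers differed between genotypes at 0 h in both directions. Mpo was at 146 and 137 TPM in KO cells and 28.5 and 33.5 TPM in WT cells. Elane was at 29.1 and 27.6 TPM in KO cells and 88.99 and 96.3 TPM in WT cells. No B or T cell marker reached that level, and 4 erythroid markers summed to 2.33 to 9.86 TPM in KO libraries and 2.31 to 8.55 TPM in WT libraries, with Hbb-bs listed at 0. Among 3 stromal and endothelial markers, Pecam1 alone gave nearly all of a summed level of 143 to 163 TPM in KO libraries and 57.9 to 158 TPM in WT libraries. The table holds shares of a library and no counts, so depth is unknown and no counting interval can be given. In bulk RNA, fewer cells of a kind and less RNA per cell cannot be told apart. At 0 h the leading 10 genes held 13.4% and 13.4% of all TPM in KO libraries, against 21.97% and 17.8% in WT libraries. Between the WT libraries at 0 h, the median Zfp gene was 0.20 lower in the first on the log2 scale, and the median of all genes was 0.17 lower.

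The unit that these proteins share is shown by the coding sequence of 1 finger each from 4 genes, chosen because Zfp146 and Zfp472 lost most of their RNA after actinomycin D, Zfp219 kept most of it in KO cells, and Zfp422 differed between genotypes. Capitals mark the codons of the pair of cysteines and the pair of histidines that hold zinc, read 5′ to 3′ on the coding strand. The stretch after the last capital of each is the linker to the next finger. Zfp146 lies at chr7:30161269-30169750, minus strand, Zfp472 at chr17:32965814-32979233, plus strand, Zfp219 at chr14:52006077-52020733, minus strand and Zfp422 at chr6:116624016-116628999, minus strand of GRCm38. The stretches are bases 220 to 300, bases 679 to 759, bases 1507 to 1587 and bases 253 to 333 of the coding sequences, each 81 bases, from GENCODE M21.
Zfp146: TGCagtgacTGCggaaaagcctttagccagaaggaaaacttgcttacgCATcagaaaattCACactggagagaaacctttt
Zfp472: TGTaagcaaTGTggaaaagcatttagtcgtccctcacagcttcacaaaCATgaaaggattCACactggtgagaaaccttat
Zfp219: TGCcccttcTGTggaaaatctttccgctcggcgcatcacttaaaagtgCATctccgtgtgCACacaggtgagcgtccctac
Zfp422: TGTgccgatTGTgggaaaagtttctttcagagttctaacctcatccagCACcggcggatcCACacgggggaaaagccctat
Position by position, the fingers of Zfp146 and Zfp472 had 52 of 81 bases alike (64.2%). The other 5 pairs had 40 to 45 bases alike, and the least alike pair was Zfp472 and Zfp219 (49.4%). Each finger was picked as the first in its coding sequence with this spacing and the usual linker. The capitals and the linker thus recur here by choice, and they enter the counts of bases alike. In such fingers, residues between the capitals contact the DNA.

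Over the annotated proteins, a KRAB A box was found in 158 members, 111 had C2H2 fingers without one, 9 had neither, and 4 members are not protein coding. The finger pattern allowed a single spacing between the cysteines, so a finger number is a lower limit: Zfp143, known as a protein of several fingers, had 1 match. The KRAB A box was searched by a pattern as well. A KRAB gene that this pattern missed counts as a member without a box, and how many it missed was not tested. The median KRAB member had 12 fingers and the median member with fingers alone had 7. In all, 151 members had 10 fingers or more, and the highest number was 33. The last positions of codons were poorer in G and C in KRAB members (median 39.2%) than in those with fingers alone (59.4%).

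KRAB members also lie together in the genome. Of the 282 members, 197 had another within 1000000 bases and 85 stood alone, and 17 clusters of 5 or more members held 148, of which 112 were KRAB genes. The most populous cluster, at chr13:67069399-67827002, held 20 members, all with a KRAB box. Near copies share reads: 19 members had over 20% of their 150-base stretches, a read's length, in another gene, and 18 of these 19 were KRAB genes, so their values are uncertain. In contrast, 245 members shared under 5%.

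Before actinomycin D, Zfp RNAs were of low abundance: 128 of the 282 averaged under 5 TPM over the 4 libraries of 0 h, and 24 averaged 20 TPM or more. Their summed level at 0 h was 2571 and 2537 TPM in KO cells, against 2349 and 2707 TPM in WT cells, and these ranges overlap. The median level at 0 h was 3.75 TPM for KRAB members and 10.8 TPM for members with fingers alone. The 10 most abundant members made up 19.98% of the members' mean TPM at 0 h, and a KRAB box was found in none of them.

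The most abundant was Zfp207, a microtubule-binding protein of the mitotic spindle known as BuGZ, and it had 84.5 and 80.2 TPM at 0 h, 42.9 and 44.9 TPM at 4 h and 15.1 and 17.7 TPM at 8 h in KO cells, against 76.2 and 92.5 TPM, 37.9 and 35.95 TPM and 10.6 and 15.6 TPM at these times in WT cells. Zfp106, an RNA-binding protein needed by motor neurons, had 82.4 and 79.5 TPM at 0 h, 66.4 and 69.3 TPM at 4 h and 58.5 and 55.9 TPM at 8 h in KO cells, against 61.4 and 72.5 TPM, 43.8 and 44.7 TPM and 29.9 and 33.7 TPM at these times in WT cells. KO libraries were above WT libraries for Zfp106 at each time, while the genotypes overlapped for Zfp207 at 0 h and 8 h. Zfp91, a ubiquitin ligase of the noncanonical NF-kappaB pathway, had 55.2 and 54.7 TPM at 0 h, 33.03 and 32.7 TPM at 4 h and 28.7 and 32.7 TPM at 8 h in KO cells, against 49.97 and 54.3 TPM, 26.2 and 25.6 TPM and 21.8 and 23.7 TPM at these times in WT cells. Zfp706, a small protein with 1 finger found, had 57.3 and 56.6 TPM at 0 h, 41.7 and 40.4 TPM at 4 h and 24.7 and 21.96 TPM at 8 h in KO cells, against 48.2 and 51.5 TPM, 32.5 and 31.4 TPM and 15.8 and 16.7 TPM at these times in WT cells. Relative to the library both kept more than most members, with 8 h changes of -0.82 in KO cells and -1.16 in WT cells for Zfp91 and of -1.25 and -1.56 for Zfp706, all of which median-ratio scaling turned above 0. KO libraries were above WT libraries at each time for both genes, 0 h included.

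Zfp217, whose human counterpart is an oncogene of breast cancer, had 44.4 and 41.6 TPM at 0 h, 6.39 and 5.91 TPM at 4 h and 6.19 and 6.65 TPM at 8 h in KO cells, against 43.7 and 50.6 TPM, 7.55 and 7.79 TPM and 4.74 and 4.49 TPM at these times in WT cells. Most of its loss was over by 4 h in both genotypes. Zfp330, a nucleolar protein, had 48.5 and 48.2 TPM at 0 h, 8.94 and 7.44 TPM at 4 h and 5.53 and 6.13 TPM at 8 h in KO cells, against 39.8 and 37.4 TPM, 6.75 and 6.31 TPM and 4.48 and 4.94 TPM at these times in WT cells. Zfp146 consists almost wholly of fingers, 10 of 28 residues that cover 95.9% of its protein, and it had 40.5 and 42.5 TPM at 0 h, 3.08 and 1.74 TPM at 4 h and 2.86 and 2.13 TPM at 8 h in KO cells, against 28.5 and 30 TPM, 2.68 and 2.03 TPM and 1.25 and 0.91 TPM at these times in WT cells. All 4 libraries of 0 h were far above the 8 libraries after actinomycin D for these 3 genes. Of the other 3 among the most abundant, Zfp771 and Zfp422 fell steadily over both intervals and Zfp414 is given with the genotype differences.

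**Figure D1:**
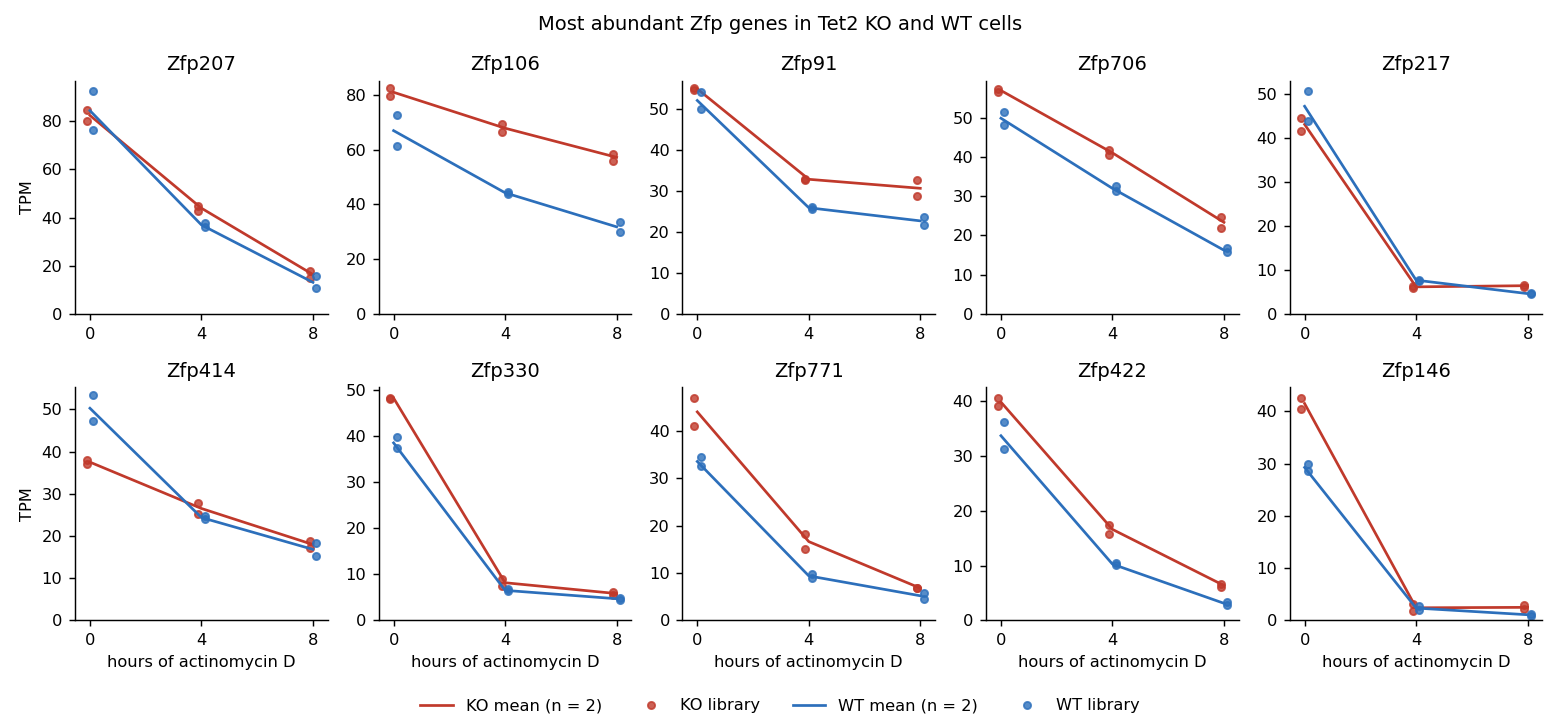
TPM against hours of actinomycin D for the 10 most abundant Zfp genes, with a point per library and a line through the mean of 2, KO in red and WT in blue. Zfp207 and Zfp106 are highest at 0 h, and Zfp106 is highest at 8 h, at 58.5 and 55.9 TPM in KO cells and 29.9 and 33.7 TPM in WT cells at 8 h, while Zfp217, Zfp330 and Zfp146 are near the axis by 4 h.

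To ask which Zfp genes depend on genotype before transcription was blocked, KO and WT libraries of 0 h were compared with limma across all 11152 genes tested, on log2(TPM + 1), a scale that understates the change of low genes. At an adjusted p of 0.05, 5 members were higher in KO cells and 15 were lower. The all-gene background was 14.3% higher and 11.5% lower, against 1.77% and 5.32% of the members. The median member differed by 0.01, the middle 50% lay between -0.14 and 0.19, and the median of all genes tested was 0.06. At an unadjusted p under 0.05 there were 39 members (13.8%), against 36.2% of all genes. Without regard to the test, KO and WT libraries did not overlap for 118 members. Of these, 65 (23.0%) were higher in KO cells, against 37.7% of all genes, and 53 (18.8%) were lower, against 25.1% of all genes.

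A pair of members kept the call under every setting and with each library left out, and both were lower in KO cells. Zfp516, a partner of Prdm16 in brown fat, was at 13.9 and 14.6 TPM in KO cells and 20.7 and 24.9 TPM in WT cells, a log2 change of -0.64 ± 0.14 (SE, adjusted p = 0.0048). Zfp276 was at 8.52 and 8.29 TPM in KO cells and 13.1 and 14.1 TPM in WT cells, a log2 change of -0.63 ± 0.13 (SE, adjusted p = 0.00334). Of its annotated exon bases, 16.6% also belong to Fanca, a DNA repair gene on the opposite strand, and the strand setting of the counting is not given in the sources used here. KO and WT libraries did not overlap for either gene.

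The change furthest below 0 was that of Zfp992, a KRAB gene in a chromosome 4 cluster, at 11.8 and 10.3 TPM in KO cells and 20.4 and 25.9 TPM in WT cells, a log2 change of -0.998 ± 0.28 (SE, adjusted p = 0.0184). It shares 21.3% of its stretches with other genes, and its adjusted p was 0.129 without WT replicate 2, 0.0533 without KO replicate 1 and 0.106 without KO replicate 2. Zfp710, with fingers alone, was at 28.3 and 29.7 TPM in KO cells and 37.5 and 43.7 TPM in WT cells, a log2 change of -0.47 ± 0.11 (SE, adjusted p = 0.0078). Its adjusted p was 0.0528 without WT replicate 2 and 0.0762 without KO replicate 1. Zfp703, a proliferation gene known from human breast cancer, was at 7.45 and 7.51 TPM in KO cells and 11.3 and 10.5 TPM in WT cells, a log2 change of -0.49 ± 0.16 (SE, adjusted p = 0.038). Of its exon bases, 13.5% also belong to Gm45371 on the opposite strand. That call was lost with any 1 of the 4 libraries left out (adjusted p 0.0758 to 0.159). These 3 genes were lower in both KO libraries than in either WT library.

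The KRAB genes Zfp287, Zfp54, Zfp934, Zfp943, Zfp658 and Zfp738 were lower in KO cells too, with log2 changes between -0.69 and -0.45. Zfp287, at 0.48 and 0.57 TPM in KO cells and 1.32 and 1.59 TPM in WT cells, kept its call with each library left out and lost it at a pseudocount of 0.1 (adjusted p = 0.0681). Zfp658 lost its call without any 1 of the 4 libraries (adjusted p 0.0638 to 0.234) and under median-ratio scaling (0.134). Zfp738 lost it without WT replicate 2 (0.102), KO replicate 1 (0.189) or KO replicate 2 (0.087). Zfp943 lost it without WT replicate 2 (0.115) or KO replicate 2 (0.146), Zfp54 without WT replicate 1 (0.0613) or KO replicate 2 (0.0929), and Zfp934 without KO replicate 1 (0.06). None of these 6 genes passed at a pseudocount of 0.1. The remaining 4 lower members were Zfp414, Zfp523, Zfp939 and Zfp862-ps, between -0.58 and -0.40. Zfp862-ps lost its call without any 1 of the 4 libraries (0.0672 to 0.18), and Zfp939 without WT replicate 2 (0.104) or KO replicate 2 (0.238), and both lost it under median-ratio scaling. Zfp414 and Zfp523 lost it without WT replicate 2 (0.0812 and 0.177), KO replicate 1 (0.0616 and 0.221) or KO replicate 2 (0.0866 and 0.101). Across the 15, the median KO level was 60.7% of the WT level.

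Among the 5 higher members, Zfp593 stood at 17.5 and 19.6 TPM in KO cells and 13.6 and 11.9 TPM in WT cells, a log2 change of 0.51 ± 0.12 (SE, adjusted p = 0.00707). Its yeast relative Bud20 is a factor of the large ribosomal subunit. Its adjusted p was 0.0874 without KO replicate 2, and 77.9% of its annotated exon bases also belong to E130218I03Rik on the opposite strand. Zfp106, at 82.4 and 79.5 TPM in KO cells and 61.4 and 72.5 TPM in WT cells, had a log2 change of 0.28 ± 0.09 (SE, adjusted p = 0.044), and its adjusted p was 0.257 without WT replicate 1, 0.213 without KO replicate 1 and 0.125 without KO replicate 2. Of its exon bases, 26.1% also belong to Gm26899 on the opposite strand. Zfp109, Zfp518b and Zfp493 were under 3 TPM in every library, with log2 changes of 0.64, 0.58 and 0.44, and each lost its call without WT replicate 1 (adjusted p 0.18, 0.105 and 0.203) and without KO replicate 1 (0.101, 0.132 and 0.304). Without KO replicate 2, Zfp109 and Zfp493 lost it as well (0.0884 and 0.0549), and under median-ratio scaling none of these 3 passed. The number of members called was 12 without WT replicate 2, 8 without KO replicate 1 and 6 without KO replicate 2, so the number moved with single libraries.

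**Figure D2:**
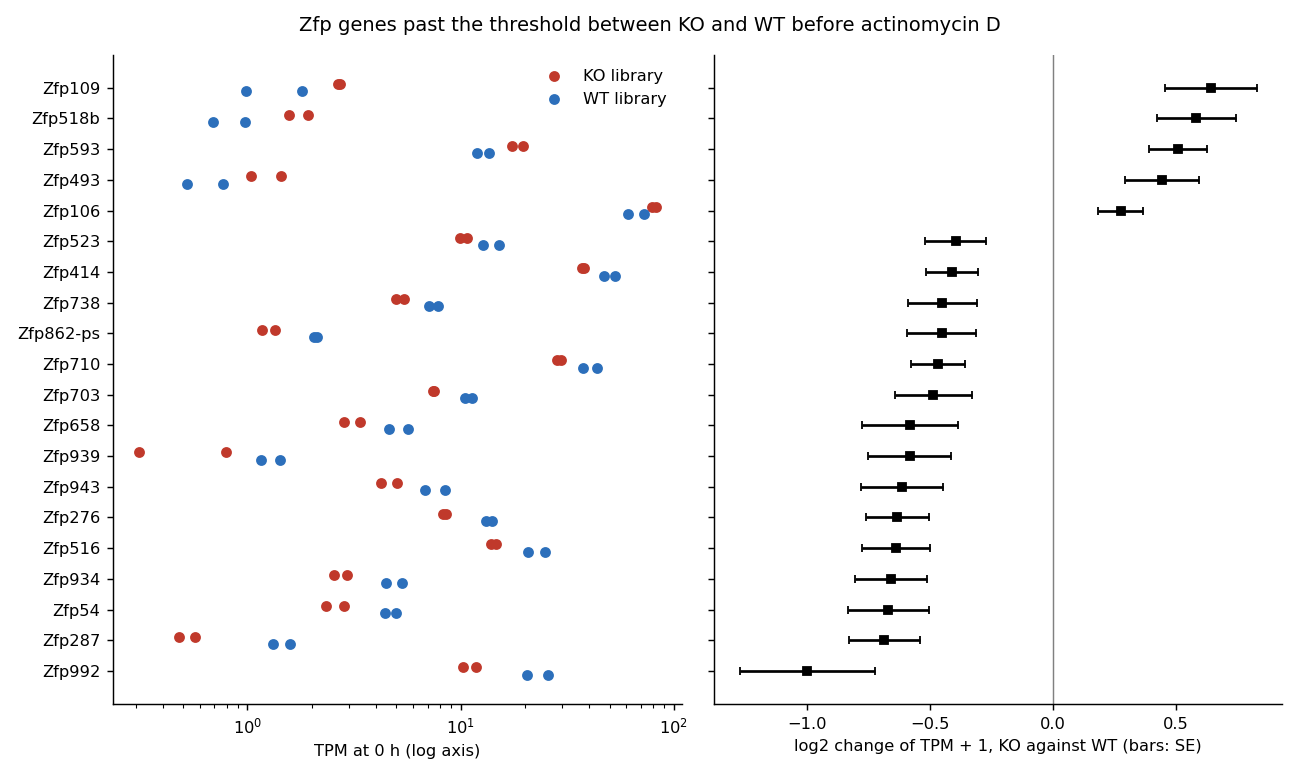
Left, TPM of each library at 0 h on a log axis for the 20 Zfp genes past the threshold between genotypes, KO in red and WT in blue. Right, log2 change of TPM + 1 with its SE, where Zfp992 is lowest at -0.998 and Zfp109 highest at 0.64.

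After actinomycin D nearly every member lost TPM, relative to the rest of the library, and most of the loss was over by 4 h. The summed level of the members was 2571 and 2537 TPM at 0 h, 737 and 727 TPM at 4 h and 564 and 552 TPM at 8 h in KO cells, against 2349 and 2707, 723 and 717, and 462 and 495 TPM in WT cells. In each genotype every library of 4 h was below every library of 0 h. No RNA standard is named, so a change is relative to the other transcripts, and a slowly lost transcript gains TPM.

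In KO cells at 4 h, 274 members were lower and 0 higher than at 0 h, where 68% of all genes tested were lower and 4.88% higher. At 8 h, 272 were lower and 1 higher, with 75.4% of all genes lower and 9.54% higher. In WT cells at 4 h, 271 were lower and 0 higher, with 71% of all genes lower and 6.77% higher. At 8 h, 278 were lower and 0 higher, with 80.2% of all genes lower and 8.48% higher. The 0 counts of higher members are of the same limma tests, with 0 members higher at an unadjusted p under 0.05 in each of these 3 cases. The 104 members that passed 1 TPM only through 0 h libraries had to fall, and 87 were at 1 TPM in all 12 libraries. Of the 73 members that averaged at least 5 TPM over all libraries, 72 at 4 h and 71 at 8 h were called in KO cells, against 70 and 73 in WT cells. These are calls in either direction from a fit on genes with that mean alone. The share called among all such genes is not given here, so the counts stand without a background.

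Among genes that averaged at least 5 TPM over all 12 libraries, the median log2 change in KO cells was -1.56 for the 73 members and -0.62 for all 7870 genes at 4 h, and -1.93 and -1.20 at 8 h. In WT cells it was -1.52 for these members and -0.75 for all such genes at 4 h, and -2.11 and -1.53 at 8 h. Below that all-gene median were 66 and 61 of the 73 members in KO cells at 4 h and 8 h, and 65 and 57 in WT cells. Over all 282 members, which include those that had to fall, the medians at 8 h were -1.70 in KO cells and -1.75 in WT cells, next to -1.16 and -1.40 for all genes tested. With each library scaled to the median ratio of its genes, which sets the typical gene to no change, 218 members were lower and 11 higher in KO cells at 8 h, where 40.7% of all genes were lower and 38.7% higher. In WT cells these were 208 lower and 12 higher, with 41.1% of all genes lower and 37.7% higher.

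As a share of the 0 h mean, among members with at least 5 TPM at 0 h, KO cells kept a median of 18.6% at 4 h and 14.7% at 8 h (157 members). WT cells kept 21.4% and 14.6% (160 members). All genes with at least 5 TPM at 0 h kept 57.5% and 35.6% in KO cells (8910 genes) and 50.8% and 28.1% in WT cells (8956 genes). In KO cells 67.5% of these members were under 25% of the 0 h level by 4 h, against 20.8% of all genes, and in WT cells 56.9%, against 21.8% of all genes. From 4 h to 8 h the loss was less steep, with a median of 79.5% of the 4 h level left in KO members and 65.9% in WT members. All genes had 73.5% and 63.7% left over that interval in KO and WT cells. The mean at 8 h was at or above that at 4 h for 33 of 157 members in KO cells (21.02%) and 23 of 160 in WT cells (14.4%). These are near the 23.0% and 15.2% of all genes with at least 5 TPM at 0 h. The sets compared here share only that floor and are not matched in level. With no floor, the median level at 0 h was 5.92 TPM for members and 19.9 TPM for all genes tested. The part of level in these differences was not tested.

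Median shares left were lower for members with a KRAB box than for those with fingers alone, which is given as a description. KRAB members kept a median of 13.0% at 4 h and 11.5% at 8 h in KO cells, and 17.95% and 11.4% in WT cells. Members with fingers alone kept 20.7% and 16.9% in KO cells, and 25.6% and 17.7% in WT cells. Genes outside the family whose proteins had 3 fingers or more kept 15.9% and 12.9% in KO cells and 18.2% and 11.995% in WT cells (69 and 67 genes). Over all members, with no floor on the 0 h level, the order was the other way on the log2(TPM + 1) scale, with median 8 h changes of -1.64 for KRAB members and -1.83 for those with fingers alone in KO cells, and -1.63 and -1.92 in WT cells. KRAB members also had the lower levels at 0 h, and the part of that level in the difference was not tested.

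**Figure D3:**
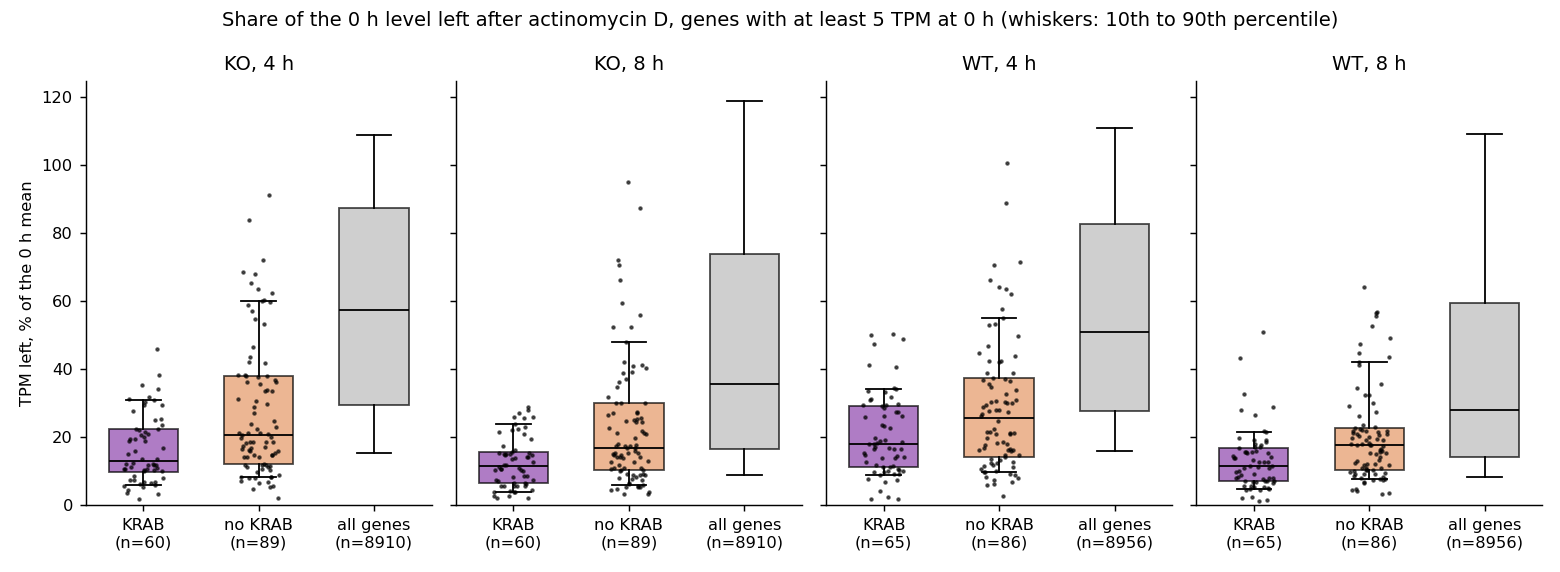
Percent of the 0 h mean TPM left at 4 h and 8 h in KO and WT cells for KRAB members, members with fingers alone and all genes tested, among genes with at least 5 TPM at 0 h. Boxes show the quartiles and median, whiskers the 10th to 90th percentile and points the single members, and the KRAB boxes are lowest in each panel, with medians of 13.0%, 11.5%, 17.95% and 11.4%.

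Share left also varied with finger number. With 1 to 4 fingers the median left at 4 h was 36.2% in KO cells and 35.7% in WT cells, with 5 to 9 fingers 20.1% and 21.3%, and with 10 to 14 fingers 18.5% and 19.7%. With 15 or more it was 11.7% and 16.7%. The 9 KO and 10 WT members with no finger found had 20.6% and 24.3% left. Across members, Spearman's rho of finger number with the share left was -0.29 at 4 h and -0.19 at 8 h in KO cells, and -0.24 and -0.23 in WT cells. Mean level at 0 h had a rho of 0.38 and 0.31 in KO cells and 0.26 and 0.25 in WT cells. For the number of ATTTA motifs per kilobase of 3′ UTR, a pentamer of AU-rich elements counted on the transcript strand with overlaps allowed, it was between -0.17 and -0.09. These are descriptions over members that share libraries, gene clusters and base composition.

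**Figure D4:**
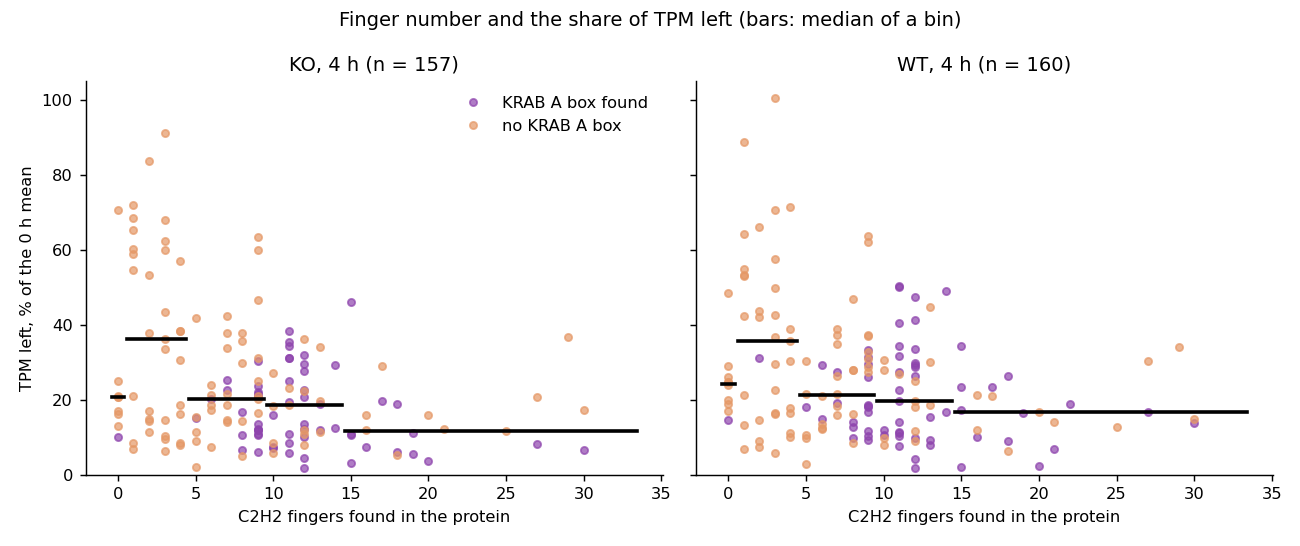
Percent of the 0 h mean TPM left at 4 h against the number of C2H2 fingers found, KO cells on the left and WT cells on the right, a point per member with at least 5 TPM at 0 h. Black bars are medians of finger bins, highest for 1 to 4 fingers (36.2% in KO cells, 35.7% in WT cells) and lowest for 15 or more (11.7% and 16.7%).

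The same genes tended to be lost or kept in both genotypes. Over the 151 members with at least 5 TPM at 0 h in each, Spearman's rho of the share left between KO and WT cells was 0.87 at 4 h and 0.86 at 8 h, with no library in common. Of the 10 members with the lowest 8 h change, 6 were shared by KO and WT cells, and of the 10 with the highest change, 8 were shared.

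On the log2(TPM + 1) scale the change furthest below 0 in both was that of Zfp146, whose values are given above. Its log2 change at 8 h was -3.61 ± 0.19 (SE, adjusted p = 2.33e-09) in KO cells and -3.87 ± 0.19 (SE, adjusted p = 9.54e-10) in WT cells. Relative to the median of all genes these were -2.45 and -2.47. The order depends on the scale: at a pseudocount of 0.1, Zfp518a was at -4.42 in KO cells, against -4.02 for Zfp146, and Zfp472 was at -5.16 in WT cells, against -4.65 for Zfp146. By share left at 8 h, Zfp146 kept 6.02% in KO cells and 3.69% in WT cells. The lowest members by that share, among those with at least 5 TPM at 0 h and looked up after their values were seen, were Zfp87 in KO cells (2.23%) and Zfp738 in WT cells (1.41%). Zfp143, an activator of small nuclear RNA genes and of many promoters, had 13.5 and 13.98 TPM at 0 h, 0.71 and 1.21 TPM at 4 h and 0.65 and 0.86 TPM at 8 h in KO cells, against 11.8 and 14.9 TPM, 0.83 and 0.97 TPM and 0.21 and 0.65 TPM at these times in WT cells. Zfp746, a target of the ubiquitin ligase parkin known as PARIS, had 17.3 and 18.1 TPM at 0 h, 1.19 and 1.09 TPM at 4 h and 1.06 and 1.20 TPM at 8 h in KO cells, against 13.9 and 20.9 TPM, 0.81 and 1.25 TPM and 0.68 and 0.84 TPM at these times in WT cells. Each fell within 4 h, and the 4 h and 8 h libraries of both lay far below those of 0 h.

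Zfp638, which helps silence unintegrated retroviral DNA, had 23.4 and 20.2 TPM at 0 h, 2.14 and 2.83 TPM at 4 h and 1.24 and 1.31 TPM at 8 h in KO cells, against 18.4 and 21.9 TPM, 1.76 and 1.24 TPM and 1.20 and 1.57 TPM at these times in WT cells. Zfp24, a SCAN domain factor needed for myelination, had 8 h changes of -3.38 in KO cells and -3.03 in WT cells. Zfp518a had -3.26 and -3.22. Adjusted p was below the threshold in both genotypes for these 6 shared genes.

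Among the KRAB genes of this group, Zfp472 had 10.02 and 9.06 TPM at 0 h, 0.21 and 0.13 TPM at 4 h and 0.35 and 0.17 TPM at 8 h in KO cells, against 8.82 and 9.52 TPM, 0.10 and 0.25 TPM and 0.06 and 0.32 TPM at these times in WT cells, and 1.78% of its KO level and 1.91% of its WT level was left by 4 h. Its neighbour in the same chromosome 17 cluster, Zfp871, had 21.1 and 22.6 TPM at 0 h, 2.47 and 2.25 TPM at 4 h and 1.29 and 1.26 TPM at 8 h in KO cells, against 21.4 and 24 TPM, 5.50 and 5.07 TPM and 1.96 and 2.19 TPM at these times in WT cells. At 4 h both KO libraries of Zfp871 were below both WT libraries. Zfp568, which silences a placental transcript of Igf2, had 8 h changes of -3.10 in KO cells and -2.94 in WT cells. Of the 10 lowest members, the pattern found a KRAB box in 2 in KO cells and 1 in WT cells. The pattern can miss a box, as given above, so others of the 10 may hold one.

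At the other end, Zfp219, a partner of Sox9 in cartilage, had 19.6 and 20.5 TPM at 0 h, 14.1 and 11.3 TPM at 4 h and 19.9 and 18.2 TPM at 8 h in KO cells, against 16 and 21.6 TPM, 11.4 and 12.5 TPM and 10.9 and 10.3 TPM at these times in WT cells. In KO cells 1 of its 8 h libraries was within the range of the 0 h ones and the other under it, with a log2 change of -0.07 ± 0.14 (SE, adjusted p = 0.653). In WT cells the change was -0.75 ± 0.14 (SE, adjusted p = 0.000255). Relative to the median of all genes these were 1.09 and 0.64, and median-ratio scaling turned both to 1.28 and 0.82. Zfp692 had 11.3 and 9.74 TPM at 0 h, 9.98 and 9.20 TPM at 4 h and 9.55 and 8.88 TPM at 8 h in KO cells, against 10.5 and 10.96 TPM, 10.2 and 11.3 TPM and 6.23 and 5.91 TPM at these times in WT cells. Its 8 h change was -0.17 ± 0.12 (SE, adjusted p = 0.188) in KO cells and -0.73 ± 0.12 (SE, adjusted p = 6.63e-05) in WT cells, and median-ratio scaling turned these to 1.11 and 0.77. At 4 h its WT libraries spanned the range of 0 h.

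Zfp385a, an RNA-binding target of p53, had 7.78 and 7.25 TPM at 0 h, 5.79 and 4.41 TPM at 4 h and 3.88 and 3.34 TPM at 8 h in KO cells, against 8.83 and 10.5 TPM, 6.05 and 7.61 TPM and 5.70 and 6.72 TPM at these times in WT cells. Zfp593 had 17.5 and 19.6 TPM at 0 h, 12.7 and 12.7 TPM at 4 h and 9.43 and 9.97 TPM at 8 h in KO cells, against 13.6 and 11.9 TPM, 11.9 and 10.7 TPM and 6.55 and 7.63 TPM at these times in WT cells. Zfp523, a relative of Zfp143, had 9.92 and 10.8 TPM at 0 h, 6.23 and 5.93 TPM at 4 h and 7.67 and 7.23 TPM at 8 h in KO cells, against 12.7 and 15.2 TPM, 6.86 and 7.92 TPM and 6.04 and 6.47 TPM at these times in WT cells. For these 3, as for Zfp106, Zfp512b and Zfp653, the 8 h change was called lower in both genotypes on the deposited scale and was above 0 under median-ratio scaling in both. Without KO replicate 1 at 0 h the KO change of Zfp512b had an adjusted p of 0.0908, and that of Zfp523 was 0.06 without KO replicate 2 at 0 h. For Zfp653 the KO adjusted p was 0.0941 without KO replicate 2 at 0 h and 0.129 without KO replicate 1 at 8 h. Over 50% of the 0 h level was left at 8 h for 9 of 157 members in KO cells and 6 of 160 in WT cells, against 38.3% and 30.3% of all genes. The 10 highest changes had a median of 3 fingers in each genotype, and the 10 lowest had 4.5 in KO cells and 5 in WT cells. Over all members the median was 10, but these lists came only from members with at least 5 TPM at 0 h. In KO cells those were 9 members with no finger found, 35 with 1 to 4, 49 with 5 to 9, 41 with 10 to 14 and 23 with 15 or more. Among the 10 highest, a KRAB box was found in 0 in KO cells and 2 in WT cells, next to 60 of 157 and 65 of 160 members with at least 5 TPM at 0 h.

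A single member was called higher, Zfp652os, an RNA from the strand opposite Zfp652, and it had 0.81 and 1.31 TPM at 0 h, 0.58 and 0.79 TPM at 4 h and 3.69 and 3.76 TPM at 8 h in KO cells, against 1.59 and 1.67 TPM, 1.15 and 1.08 TPM and 3.08 and 0.83 TPM at these times in WT cells. Its KO change at 8 h was 1.21 ± 0.28 (SE, adjusted p = 0.00145), while the WT libraries at 8 h were far apart. Of its exon bases, 11.4% lie within exons of Zfp652, and without the strand setting of the counting the reads over these shared bases cannot be told apart. In WT cells at 8 h, Zfp652os, Zfp938, Zfp972 and Zfp973 did not pass the threshold, each at 3.08 TPM or less in every WT library of 0 h and 8 h.

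Whether the loss differed between genotypes was tested as the KO change minus the WT change. At 4 h, limma called 0 members, against 0.0538% of all genes higher and 0.296% lower, and 30 members (10.6%) were at an unadjusted p under 0.05, against 15.8% of all genes. The smallest p belonged to Zfp871, with a difference of -0.85 ± 0.18 (SE, adjusted p = 0.0672), which passed under median-ratio scaling (adjusted p = 0.0211). Zfp445, a KRAB protein that keeps imprints, had a difference of -0.62 ± 0.16 (SE, adjusted p = 0.119), which also passed under that scaling (adjusted p = 0.0219). Zfp871 also passed with no trend (adjusted p = 0.0496) and with the compared groups alone (0.0489), and Zfp287 with no filter (0.0469). For Zfp287, Zfp414 and Zfp764 the differences were 0.73, 0.53 and -0.68, with adjusted p of 0.139, 0.142 and 0.158.

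At 8 h, 15 members had a higher and 2 a lower change in KO cells than in WT cells, with 17.3% of all genes higher and 2.63% lower. The median difference was 0.01 for members and 0.18 for all genes, and 194 of 282 members were below the median of all genes. Under median-ratio scaling, 3 members were higher and 10 lower. The shares of all genes called each way on that scale are not given here, so these counts stand without a background. At an unadjusted p under 0.05 in the limma test on that scale there were 44 of 282 members and 3484 of 11152 genes. Each of the 17 kept its sign under that scaling, which sets the typical difference near 0 and so moves the counts.

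The 2 members with the greater loss in KO cells were below 0 on both scales. Zfp622, whose yeast relative Rei1 acts on the large ribosomal subunit, had 36.7 and 36.4 TPM at 0 h, 3.61 and 3.46 TPM at 4 h and 2.85 and 3.89 TPM at 8 h in KO cells, against 30.6 and 34.01 TPM, 6.04 and 4.53 TPM and 6.92 and 6.52 TPM at these times in WT cells. Its difference at 8 h was -1.005 ± 0.21 (SE, adjusted p = 0.00619), and it passed the threshold under every setting and with each library left out. KO libraries were above WT libraries at 0 h and below them at 4 h and 8 h. Zfp747, a KRAB gene, had 6.33 and 5.10 TPM at 0 h, 0.78 and 0.59 TPM at 4 h and 0.71 and 0.56 TPM at 8 h in KO cells, against 3.55 and 4.32 TPM, 0.71 and 1.13 TPM and 1.92 and 1.29 TPM at these times in WT cells. Its difference was -1.11 ± 0.26 (SE, adjusted p = 0.0109), with an adjusted p of 0.051 without KO replicate 1 at 0 h.

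Among those with less loss in KO cells, Zfp106 had a difference of 0.55 ± 0.13 (SE, adjusted p = 0.0114), with 70.7% of the 0 h level left in KO cells and 47.5% in WT cells. It remained positive under median-ratio scaling (0.31), and its adjusted p was 0.0517 without KO replicate 2 at 0 h. Zfp422 had 40.6 and 39.1 TPM at 0 h, 17.5 and 15.8 TPM at 4 h and 6.14 and 6.60 TPM at 8 h in KO cells, against 31.3 and 36.1 TPM, 10.5 and 10.1 TPM and 2.86 and 3.38 TPM at these times in WT cells, a difference of 0.60 ± 0.16 (SE, adjusted p = 0.0211). Its adjusted p was 0.0728 without WT replicate 2 at 0 h, 0.063 without WT replicate 1 at 8 h, 0.0645 and 0.0901 without KO replicate 1 or 2 at 0 h, and 0.0573 without KO replicate 2 at 8 h. Both KO libraries of Zfp422 were above both WT libraries at each time. Zfp384, a fusion partner in human acute lymphoblastic leukemia, had 27.5 and 27.8 TPM at 0 h, 12.2 and 11.1 TPM at 4 h and 9.97 and 10.1 TPM at 8 h in KO cells, against 30.5 and 37.9 TPM, 12.5 and 12.9 TPM and 7.85 and 7.86 TPM at these times in WT cells, a difference of 0.61 ± 0.16 (SE, adjusted p = 0.0194). Its KO libraries were below the WT libraries at 0 h and above them at 8 h. The adjusted p of Zfp384 was 0.0568 without WT replicate 2 at 0 h, 0.0707 and 0.0693 without KO replicate 1 or 2 at 0 h, and 0.0525 under median-ratio scaling.

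Zfp414 had 37.98 and 37.03 TPM at 0 h, 27.8 and 25.2 TPM at 4 h and 18.8 and 17.1 TPM at 8 h in KO cells, against 47.3 and 53.3 TPM, 24.6 and 24.1 TPM and 15.3 and 18.3 TPM at these times in WT cells, a difference of 0.50 ± 0.15 (SE, adjusted p = 0.0338), and 30.4% of its exon bases also belong to Gm20507 on the same strand. Its lower KO level at 0 h had met the WT level by 8 h, where the ranges overlapped. The difference of Zfp414 was not followed through the settings, and its call at 0 h was lost with single libraries left out, as given above. Zfp414 also shares 17.8% of its 150-base stretches with other genes. Zfp217, Zfp219, Zfp692, Zfp35, Zfp984, Zfp523, Zfp639, Zfp408, Zfp939, Zfp54 and Zfp287 had differences between 0.53 and 0.93, all above 0. Of these, Zfp939, Zfp54, Zfp287 and Zfp523 were also lower in KO cells at 0 h, and the contrasts share the 0 h libraries. Zfp287 and Zfp939 were so low in KO cells at 0 h that they could fall little on the log2(TPM + 1) scale. The part of the 0 h levels in the differences of Zfp939, Zfp54, Zfp287 and Zfp523 was not tested. These differences alone therefore do not show less loss. Of the 12 members followed through all settings, 11 lost the call in at least 1. Without WT replicate 2 at 0 h, the adjusted p was 0.0994 for Zfp217, 0.115 for Zfp219, 0.0668 for Zfp35, 0.097 for Zfp523, 0.0981 for Zfp639, 0.114 for Zfp408 and 0.0605 for Zfp939. Each of these also lost the call without at least 1 KO library of 0 h. The 17 calls were 10 without WT replicate 1 at 8 h, 7 without KO replicate 1 at 8 h, 4 without KO replicate 1 at 0 h, and 3 without either WT replicate 2 or KO replicate 2 at 0 h. They were 8 when only the compared groups entered the fit.

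**Figure D5:**
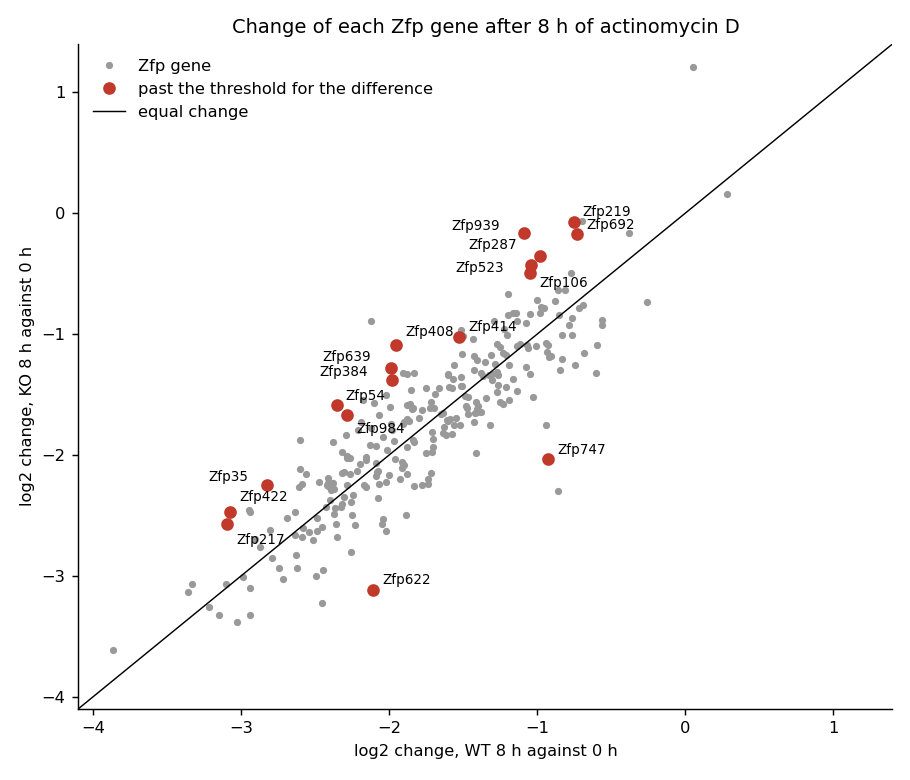
Log2 change at 8 h in KO cells against that in WT cells for each of the 282 Zfp genes, with the line of equal change and the 17 members past the threshold for the difference in red. Zfp622 and Zfp747 lie below the line, at differences of -1.005 and -1.11, and the other 15 lie above it.

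A list of 12 members known or listed for roles with RNA, ribosomes or the spindle was read apart. It held Zfp106, Zfp207, Zfp326, Zfp346, Zfp385a, Zfp593, Zfp598, Zfp622, Zfp638, Zfp706, Zfp830 and, though a KRAB gene by its sequence, Zfp871. On the deposited scale all 12 were lower at 8 h in both genotypes, and under median-ratio scaling 5 were lower and 2 higher in KO cells and 5 lower and 3 higher in WT cells. Of all genes, 75.4% were lower at 8 h in KO cells and 80.2% in WT cells on the deposited scale. Their median change was -1.47 in KO cells and -1.58 in WT cells, against -1.16 and -1.40 for all genes. At 0 h, 2 of the 12 (Zfp593 and Zfp106) were higher in KO cells and 0 lower, next to 14.3% and 11.5% of all genes, and both calls were lost with single libraries left out, as given above. Zfp598, a ubiquitin ligase for collided ribosomes, had 23.2 and 26.4 TPM at 0 h, 14.6 and 12.6 TPM at 4 h and 9.71 and 8.76 TPM at 8 h in KO cells, against 22.1 and 25.96 TPM, 13.4 and 12.99 TPM and 7.22 and 7.24 TPM at these times in WT cells. It changed by -1.33 in KO cells and -1.60 in WT cells at 8 h.

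Of 18 genes that work with KRAB proteins, 3 were higher in KO cells at 0 h and 0 lower, next to 14.3% and 11.5% of all genes, with Trim28, the common corepressor, at 186 and 193 TPM in KO cells and 143 and 159.8 TPM in WT cells, a log2 change of 0.33 ± 0.08 (SE, adjusted p = 0.00993). At 8 h, 16 were lower and 1 higher in KO cells (75.4% and 9.54% of all genes), and 17 were lower and 0 higher in WT cells (80.2% and 8.48% of all genes), with medians of -2.17 and -2.47, and under median-ratio scaling 14 were lower and 2 higher in each genotype. The member that rose was Chd3, a remodeller of the NuRD complex, by 0.32 ± 0.11 (SE, adjusted p = 0.0166). The difference at 8 h was positive in 6 of 18 and negative in 0 by the test, next to 17.3% and 2.63% of all genes. Trim28 was at 62.9 and 66.3 TPM in KO cells and 24.8 and 27.97 TPM in WT cells at 8 h, a difference of 0.93 ± 0.11 (SE, adjusted p = 0.00051). Setdb1, the histone methyltransferase that Trim28 recruits, had a difference of 0.08 ± 0.18 (SE, adjusted p = 0.796).

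Other zinc finger families fell as well. At 8 h, all 11 tested Klf genes, 34 of 35 Zbtb genes, 15 of 15 Zscan and Zkscan genes, all 4 Sp genes, 3 of 3 Ikzf and 3 of 3 Egr genes were lower in KO cells. In WT cells 11, 33, 14, 4, 3 and 2 were. These counts stand next to 75.4% of all genes lower in KO cells and 80.2% in WT cells. Among 20 tested CCCH genes, whose fingers bind RNA, 19 were lower and 1 higher in KO cells and 20 lower in WT cells. Under median-ratio scaling fewer passed: 8 Klf genes were lower and 0 higher in KO cells and 5 lower and 1 higher in WT cells. For Zbtb genes these were 28 and 2 in KO cells and 26 and 3 in WT cells, for Zscan and Zkscan genes 12 and 0 and 13 and 1, and for CCCH genes 13 and 3 and 10 and 4. All 4 Sp genes stayed lower in both, 2 Ikzf genes in KO cells and 3 in WT cells, while 1 Egr gene was lower in each genotype and 1 higher in WT cells. Medians ran between -1.34 and -2.98 in KO cells and between -1.68 and -3.18 in WT cells, next to -1.70 and -1.75 for the Zfp members, and each of these medians was below 0 under median-ratio scaling too.

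Changes were also read by genome cluster. In the 7 clusters of 10 or more members, 86 of 87 members were lower at 8 h in KO cells and all 87 in WT cells, next to 96.5% and 98.6% of all members and 75.4% and 80.2% of all genes. In the chromosome 13 cluster 17 of the 20 members reached 1 TPM only in 0 h libraries and had to fall, so their count of calls says little. Its median change was -1.69, with a range of -2.60 to -1.08, in KO cells, and its median was -1.66, with a range of -2.94 to -0.69, in WT cells. At 0 h, 1 of the 20 was higher in KO cells (Zfp493) and 1 lower (Zfp738). The cluster at chr17:21008903-23564238 held 16 members, 15 of them KRAB genes, and 8 of the 16 reached 1 TPM only in 0 h libraries. Their median changes at 8 h were -1.72 in KO cells and -1.87 in WT cells. At 0 h, 2 of these 16 were lower in KO cells (Zfp54 and Zfp943) and 0 higher.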

How the data were processed

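RNA of 12 libraries of KO and WT cells was measured by paired-end mRNA sequencing with a strand-marking kit. The deposited values are TPM per gene, made by the authors with STAR, RSEM and the mm10 genome, per the submitters' processing notes. Versions, annotation and strand setting of the counting stay not given in the sources used here. TPM are shares, and each column sums to 1000000, so depth per library is unknown.

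Groups followed the labels. Genes that reached 1 TPM in 2 libraries or more, 11152 in all, entered a limma 3.58.1 fit (R 4.3.3) of log2(TPM + 1). It held a mean for each of the 6 groups, 12 libraries together, which leaves 6 residual degrees of freedom, and a trend on the mean. It gave the KO minus WT contrast at 0 h, the changes at 4 h and 8 h within each genotype, and the KO change minus the WT change. Adjusted p are Benjamini-Hochberg values over all genes tested, with a threshold of 0.05, and the fit was tested on simulated data. Members, lists and tests were chosen with earlier results of these data known.

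Named members were the 10 highest at 0 h, up to 15 each way past the threshold between genotypes, the 10 lowest and 10 highest 8 h changes among members with at least 5 TPM at 0 h in that genotype, and up to 10 each way for the genotype differences (the 5 smallest p where none passed). Others were named after their values were seen. Fingers (C-x2-C-x12-H-x3-5-H), the KRAB A box and ATTTA motifs were searched in 1 transcript per gene of GENCODE M21 (GRCm38), found for 97.3% of the tested genes. Alternatives were median-ratio scaling, tests with no filter or from a mean of 5 TPM upward, other pseudocounts (0.1, 0.5), no trend, a replicate block, the compared groups alone, each library left out and, added after the data were seen, a wider symbol rule and leaving out members that share sequence.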

Additional observations from a re-analysis of the deposited data

Results flagged for a closer look

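The change at 8 h differed between KO and WT cells, by the limma test of the difference itself, for 12 named Zfp genes on the log2(TPM + 1) scale. KO cells lost more for Zfp622, with a difference of -1.005 (-3.11 in KO cells and -2.11 in WT cells). They also lost more for Zfp747, with a difference of -1.11 (-2.03 in KO cells and -0.93 in WT cells). KO cells lost less for Zfp106 (0.55), Zfp217 (0.53), Zfp35 (0.58), Zfp384 (0.61), Zfp422 (0.60) and Zfp523 (0.62). The differences were larger for Zfp219 (0.68), Zfp639 (0.70), Zfp408 (0.86) and Zfp939 (0.93). Zfp939 is not protein coding and was at 1.43 TPM or less in every library, so its KO level had little room to fall on this scale. Of the 12, 11 lost the call in at least 1 alternative, and Zfp622 kept it in each. Zfp217, Zfp219, Zfp35, Zfp384, Zfp408, Zfp523 and Zfp639 lost it under median-ratio scaling. Among all genes tested, 17.3% had a difference above 0 past the threshold and 2.63% one below it.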

How the results depend on the processing

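The fall after actinomycin D was called for most members tested in each setting, while the numbers called between genotypes moved with the settings and with single libraries. With a mean of at least 5 TPM, which leaves 73 members, the numbers called were 9 for KO against WT at 0 h, 72 and 71 for KO cells at 4 h and 8 h, and 70 and 73 for WT cells. The share called among all genes with that mean is not given here. A pseudocount of 0.1 left 5 members called for KO against WT at 0 h, and one of 0.5 left 15. For the difference at 4 h, median-ratio scaling gave 2 calls, and no filter, no trend and the compared groups alone gave 1 each, where the reported number was 0. For the difference at 8 h, the compared groups alone gave 8. Except for the smaller number of genes tested at 5 TPM, the cause was not tested. Without counts the depth behind low TPM is unknown, and low members are the least certain.

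With 1 library left out, a lone library being assumed to vary like the other groups, the numbers called ran from 6 to 16 for KO against WT at 0 h. They ran from 265 to 271 and from 269 to 272 for KO cells at 4 h and 8 h, and from 262 to 268 and from 275 to 277 for WT cells. The difference gave 0 in each case at 4 h and 3 to 23 at 8 h.

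Under median-ratio scaling 26 members in KO cells and 31 in WT cells had an 8 h change above 0. Among the named members whose sign this turned, the values in KO cells were Zfp106 (0.91), Zfp91 (0.57), Zfp706 (0.14), Zfp414 (0.35), Zfp385a (0.30), Zfp593 (0.46), Zfp513 (0.43), Zfp512b (0.58), Zfp653 (0.67), Zfp523 (0.85), Zfp692 (1.11) and Zfp219 (1.28). In WT cells they were Zfp106 (0.60), Zfp91 (0.48), Zfp706 (0.068), Zfp414 (0.10), Zfp523 (0.48), Zfp688 (0.35), Zfp991 (0.66), Zfp512b (0.57), Zfp653 (0.63), Zfp593 (0.76), Zfp219 (0.82), Zfp692 (0.77) and Zfp385a (0.93). That scaling divides out the typical fall by construction. Zfp991 shares 62.8% of its stretches, and its WT call was lost without WT replicate 1 at 0 h (adjusted p = 0.225) or either WT replicate at 8 h (0.091 and 0.0912). Of all alternative values of single genes, 944 kept direction and side of the threshold, 153 fell short of it, 5 newly passed it and 25 changed sign.

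Replicate numbers did not pair the libraries: correlations of replicate differences between groups lay between -0.083 and 0.051. With a replicate block, 18 members were called for KO against WT at 0 h, 275 and 273 for KO cells and 271 and 277 for WT cells at 4 h and 8 h, and 0 and 15 for the differences. The wider symbol rule gave 20 and 17 calls for KO against WT at 0 h and the 8 h difference, and leaving out members that share sequence gave 19 and 17.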
